A study of Mus musculus with 6 samples.

Results

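The genes described here are 36 genes of hypoxia and glycolysis, taken as 17 glycolytic enzymes and 19 other genes that low oxygen is known to induce or that run the oxygen response. A probe belonged to a gene when the array file, or the current symbol behind an older one, named that gene. By this rule all 36 genes had a probe, with 59 probes among the 27573 named genes and 41174 probes of the whole array. Some symbols differ from those in use now, since Pkm2 is the current Pkm, Ero1l is Ero1a, and Kdm3a appears on the array as Jmjd1a. Between the days and against the reference, 35 of the 36 were tested (all 17 enzymes and 18 of the 19 others). The remaining one was Car12, a membrane-bound carbonic anhydrase, whose probes were not well above background in either dye on any array. The rule itself uses no measured value.

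The tumors grew from Hepa1-6, a mouse hepatoma line, after cultured cells had been injected subcutaneously into C57Bl/6 mice, all female. Tumors 303, 313 and 318 were collected at day 15 after inoculation and tumors 302, 307 and 312 at day 10, with no further treatment named for either. Each tumor was hybridised to its own 2-colour Agilent array with tumor RNA in Cy5 and, as the reference, RNA of blood of an untreated female C57Bl/6 mouse in Cy3. Which mouse bore which tumor is not given in the labels, so the p-values cover only variation among these pieces of tissue, which besides the transplanted line also hold host cells.

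Cells short of oxygen stabilise the alpha subunit of hypoxia-inducible factor (HIF), which otherwise is hydroxylated by the Egln enzymes and destroyed. HIF then binds a short motif in DNA and raises genes for glucose uptake, for glycolysis, for lactate and acid export and for vessel growth. Glycolysis splits glucose into pyruvate, first spending ATP (hexokinase, phosphofructokinase) and then regaining it (phosphoglycerate kinase, pyruvate kinase), and lactate dehydrogenase turns the pyruvate into lactate. In solid tumors these genes are used as readouts of low oxygen, while many cells run glycolysis with oxygen present as well.

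All arrays gave tumor signals well above background for 52.4% to 58.5% of spots, and reference signals for 47.5% to 52.8%. Log2 ratios of all probes correlated between pairs of arrays at 0.845 to 0.978, a description across probes. The array of tumor 312 had lost signal in its middle. A rectangle around that area held 19.5% of the spots, and 46.2% of the bright spots inside it were more than 1 log2 unit below the other arrays in Cy3, against 0.0487% outside. All day 15 arrays lay on 1 slide and all day 10 arrays on another, so day and slide cannot be told apart. Dyes were not swapped, so any preference of a probe for one dye is part of its ratio.

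Upstream DNA of the genes was read from RefSeq gene starts (mouse build GRCm38.p6) to show the motif through which HIF is known to act. Of the 36 genes, 34 had a window in that table. Within 250 bases before a start, 18 of these 34 held ACGTG on either strand (read as CACGT on the other strand), against 18.5% of the 27025 genes in the table. The variant GCGTG, also on either strand, stood before 21 of the 34, against 30.9% of genes. A gene counted when any of its listed starts had the motif, and each match is a description of letters and not a binding site. Printed here are the last 160 bases before a start for 6 of the genes, chosen to cover glucose uptake, glycolysis, lactate formation, acid handling and 2 of the genes that varied most between tumors, on each gene's own strand with ACGTG and CACGT in capitals. A run of CACGTG is both motifs overlapping, which occurred in Ldha and Bnip3. Only starts with a match within these 160 bases were eligible, and the first was taken, so every printed stretch holds the motif by choice. Another listed start of Ldha had 0 ACGTG matches.
Slc2a1 (chr4:119108585-119108744, plus strand): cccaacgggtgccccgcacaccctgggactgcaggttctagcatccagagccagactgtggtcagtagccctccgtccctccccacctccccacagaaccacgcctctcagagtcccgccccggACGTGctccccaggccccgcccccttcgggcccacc
Pgk1 (chrX:106186940-106187099, plus strand): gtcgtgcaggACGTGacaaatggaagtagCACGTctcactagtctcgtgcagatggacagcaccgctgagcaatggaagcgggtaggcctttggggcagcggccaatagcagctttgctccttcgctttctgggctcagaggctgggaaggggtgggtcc
Ldha (chr7:46845644-46845803, plus strand): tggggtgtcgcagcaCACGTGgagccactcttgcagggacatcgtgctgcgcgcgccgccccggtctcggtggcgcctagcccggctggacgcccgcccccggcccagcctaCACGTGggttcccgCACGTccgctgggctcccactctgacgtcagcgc
Car9 (chr4:43506866-43507025, plus strand): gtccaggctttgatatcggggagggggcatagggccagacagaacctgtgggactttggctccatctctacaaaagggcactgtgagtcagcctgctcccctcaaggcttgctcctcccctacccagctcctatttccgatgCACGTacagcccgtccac
Bnip3 (chr7:138909507-138909666, minus strand): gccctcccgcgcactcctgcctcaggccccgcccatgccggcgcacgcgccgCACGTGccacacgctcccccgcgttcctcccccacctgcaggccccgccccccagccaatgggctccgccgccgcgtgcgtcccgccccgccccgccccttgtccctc
Ero1l (chr14:45318573-45318732, minus strand): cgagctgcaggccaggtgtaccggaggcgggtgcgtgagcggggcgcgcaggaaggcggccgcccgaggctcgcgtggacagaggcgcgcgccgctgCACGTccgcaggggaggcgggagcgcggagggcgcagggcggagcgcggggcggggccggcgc
The listing runs from the glucose carrier Slc2a1 through phosphoglycerate kinase (Pgk1) and lactate dehydrogenase (Ldha) to Car9, Bnip3 and Ero1l. Matches in the printed stretch numbered 5 in Ldha, 2 each in Pgk1 and Bnip3 and 1 each in Slc2a1, Car9 and Ero1l, counting both strands.

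The first comparison asked how the genes stood in tumors relative to blood RNA. A gene was called when its limma adjusted p was under 0.05 and its mean log2 ratio was at least 1 in size. By that rule 16 of the 35 tested genes were higher in the tumors and 0 were lower, where 25.5% of all 16305 genes tested were called higher and 9.76% lower. The calls comprised 12 of the 18 other hypoxia genes and 4 of the 17 enzymes. The median log2 ratio was 1.20 for the other hypoxia genes, 0.67 for the enzymes and 0.22 for all genes tested. The test sets the tumors against 0 and leaves out the spread between blood samples.

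The scale of these ratios depends on the normalization. With each array centred on its median and no loess, the median of all genes was -0.34, the share of all calls that were higher was 41.3% in place of 72.3%, and the median of the enzymes was -0.17. With the scanner's own processed signals the median of all genes was -0.02 and the higher share of calls 57.9%. Ratios near 0 in the following are therefore not firm in sign.

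Among genes of glucose entry and lactate exit, Slc16a3, a monocarboxylate carrier that exports lactate, was far higher in the tumors. Its log2 ratio was 4.72, 4.93 and 4.62 in day 15 tumors 303, 313 and 318, against 4.81, 4.82 and 4.40 in day 10 tumors 302, 307 and 312. Over the 6 tumors this came to 4.72 ± 0.19 (SD, n = 6), or 26.3-fold, with a limma adjusted p of 2.19e-07. Every tumor was far above the reference and the days overlapped. Slc2a1, the common glucose carrier, averaged 1.02 ± 0.66 (limma adjusted p = 0.00478). That mean lay just past the limit of 1, and it was 0.85 without tumor 313, 0.86 without tumor 307, 0.99 without tumor 302, 0.97 with the scanner's processed signals and 0.054 with median centring, so the call was lost each time. Car9, a carbonic anhydrase of the cell surface, gave a blood signal that was not well above background on any of the arrays. Car9 was at least 2.41-fold higher in the tumors (limma adjusted p = 0.000412), a bound that is open to dye bias.

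The enzymes that passed stood at the top of glycolysis. Pfkfb3 and Pfkfb4 make the activator of phosphofructokinase. Pfkfb3 had log2 ratios of 2.44, 3.36 and 2.45 in day 15 tumors 303, 313 and 318, against 3.34, 3.58 and 2.55 in day 10 tumors 302, 307 and 312 (mean 2.95 ± 0.53, 7.75-fold, limma adjusted p = 2.12e-05). This is its brightest probe. The other 2 probes, whose reference signal was not well above background on any array, averaged 0.25 and 0.70, and the mean over all Pfkfb3 probes was 1.30. Pfkfb4 averaged 2.52 ± 0.51, with tumor 313 at 3.40 the highest and tumor 318 at 1.84 the lowest. The platelet-type phosphofructokinase Pfkp averaged 2.10 ± 0.32 by its brightest probe, against 2.97 and -0.08 by its others, and glucose-6-phosphate isomerase, Gpi1, 1.54 ± 0.44. The Pfkp mean of 2.97 includes a dimmed spot of tumor 312, at -0.27. By their brightest probes, all 4 were above 0 in all 6 tumors. Hexokinase 2 (Hk2, 0.81), liver-type phosphofructokinase (Pfkl, 0.67), aldolase A (Aldoa, 0.85 over 5 tumors), aldolase C (Aldoc, 0.72) and pyruvate kinase (Pkm2, 0.80) had positive mean log2 ratios with adjusted p below 0.05 but under the limit of 1. Hexokinase 1 (Hk1) averaged 0.34. With median centring the values of Hk1, Hk2, Pfkl, Aldoa and Pkm2 were below 0, and Gpi1, at 0.60, was no longer called.

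Apart from pyruvate kinase, enzymes of the lower part of the pathway lay nearer to 0. Mean log2 ratios were -0.21 for triose phosphate isomerase (Tpi1), -0.22 for glyceraldehyde phosphate dehydrogenase (Gapdh), 0.17 for Pgk1, -0.09 for phosphoglycerate mutase (Pgam1) and -0.36 for enolase 1 (Eno1). Lactate dehydrogenase A (Ldha) stood at 0.20 and the neuronal enolase Eno2 at 0.39. None of these 7 was called, and the sign of Pgk1 and Ldha turned with the scanner's processed signals (-0.08 and -0.15). The Gapdh probe was dim, with a mean log2 Cy5 of 8.30, and answers to a cDNA accession. Its values are those of that one probe.

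In the HIF circuit itself, the hydroxylase gene Egln1 was called, at 1.94 ± 0.36, or 3.84-fold (limma adjusted p = 1.4e-05), while its other probe averaged 1.12. Its relative Egln3 had a mean of 0.99 that missed the limit of 1 and an adjusted p of 0.0085. It was called without tumor 312 (1.22), 303 (1.11) or 318 (1.01). Hif1a, the alpha subunit itself, averaged 0.52 ± 0.26 and was above 0 in all 6 tumors without reaching the limit. Higd1a, a mitochondrial membrane protein, was at -0.50 by its brighter probe and 0.65 by another. Kdm3a, a histone demethylase, averaged 0.29, which was -0.012 with the scanner's processed signals, and Pdk1, the kinase that shuts pyruvate dehydrogenase, averaged -0.10, against 0.95 by its other probe.

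Secreted and stress-response targets made up most of the remaining calls. Adm, the vessel-widening peptide adrenomedullin, had log2 ratios of 5.45, 5.26 and 4.28 in day 15 tumors 303, 313 and 318, against 4.90, 5.02 and 3.96 in day 10 tumors 302, 307 and 312 (mean 4.81 ± 0.58, 28.1-fold, limma adjusted p = 4.48e-06). Angptl4, a secreted inhibitor of lipoprotein lipase, averaged 2.31 ± 0.87 over 5 tumors, because the spot on the array of tumor 318 was an outlier. Both were higher than the reference in every tumor measured. Ndrg1, a stress-induced gene, averaged 2.22 ± 0.69, Ankrd37 2.08 ± 0.68 and Ddit4, an inhibitor of the growth kinase mTOR, 1.99 ± 0.62. The mitophagy receptor Bnip3 averaged 1.16 ± 0.88, and the Myc antagonist Mxi1 1.20 ± 0.83. Stc2, a secreted glycoprotein, was at least 1.84-fold higher, its reference signal not being well above background. Of these, Mxi1 lost its call without tumor 313 (0.99) and with processed signals (0.93), and Stc2 without tumor 313 (0.89). Bnip3 lost its call without tumor 307 (0.94), and with median centring Bnip3 (0.21) and Mxi1 (0.59) did. Stc2 was at 0.95 without background correction. Ero1l, at 0.83, was not called, but it was without tumor 312 (1.09) or 303 (1.02).

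**Figure D1:**
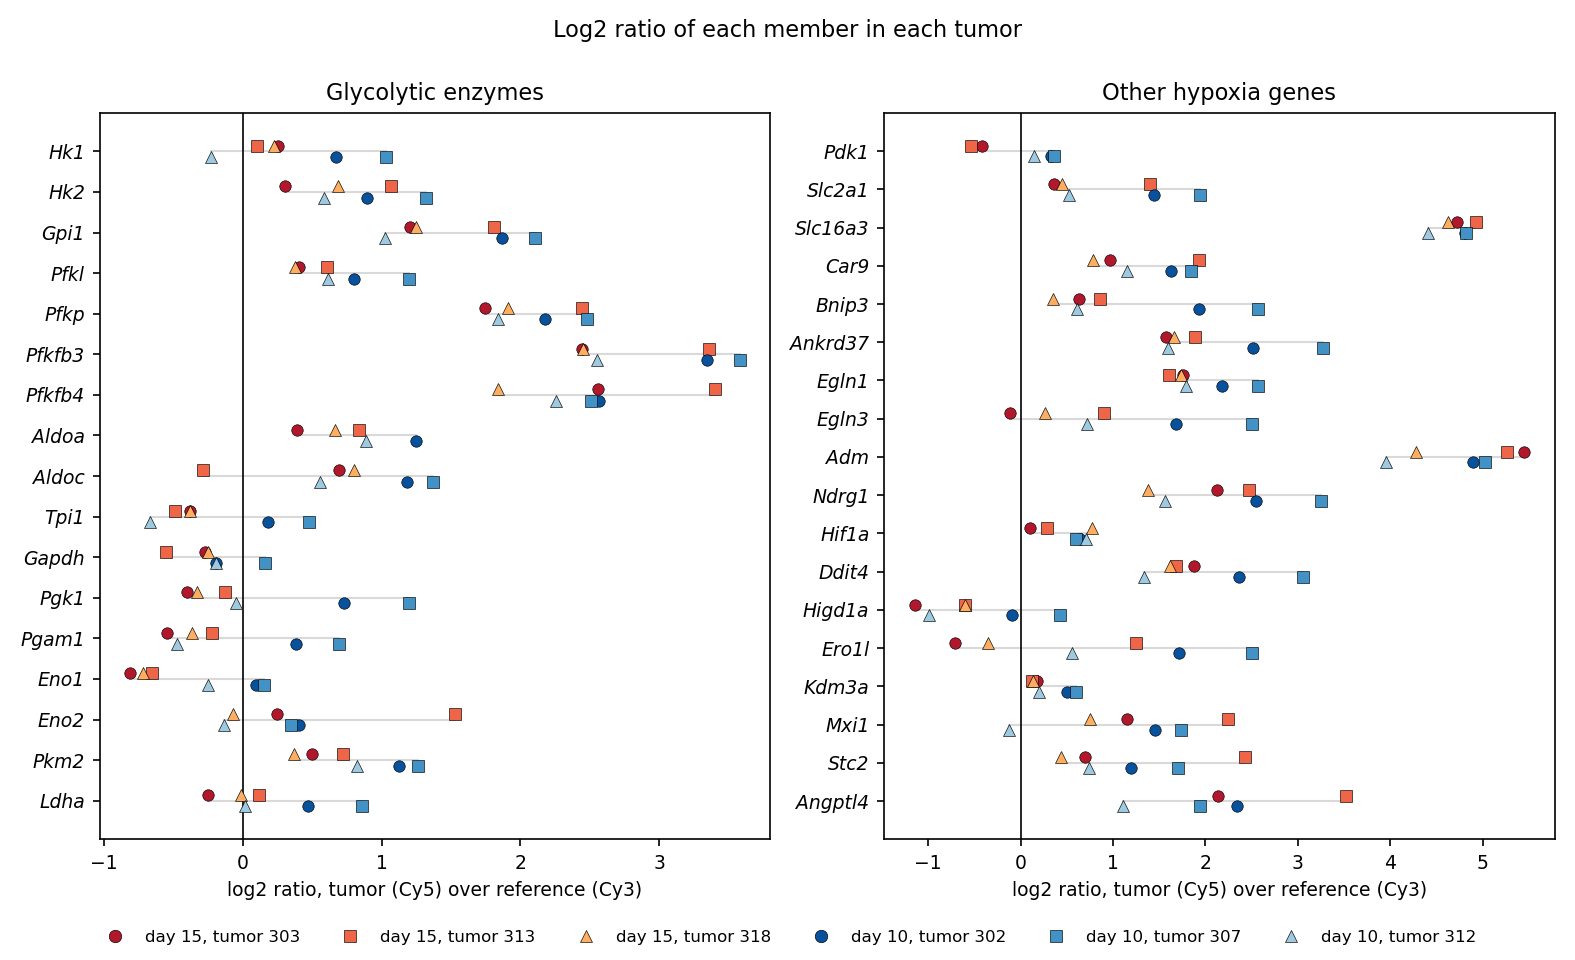
Log2 ratio of tumor (Cy5) over reference (Cy3) for each tested gene on the horizontal axis, with glycolytic enzymes in pathway order on the left and other hypoxia genes on the right. Each point is 1 tumor (red and orange for day 15, drawn above blue for day 10), and the grey line spans the lowest to the highest tumor. Slc16a3 and Adm stand far to the right in all tumors, and the lower-glycolysis enzymes scatter about 0.

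The second comparison set day 15 tumors against day 10 tumors. None of the 35 genes passed the limma adjusted threshold of 0.05, and the smallest adjusted p was 0.708, for Eno1. At an unadjusted p under 0.05, 5 genes were lower at day 15 (Eno1, Pkm2, Pgk1, Pdk1 and Egln3) and 0 were higher. Of all 15802 genes tested, 1.53% were lower and 2.33% higher at that level, and the adjusted test passed 0.0443% as lower and 0.0127% as higher. Every alternative fit likewise passed 0 of the genes.

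The signs of the differences ran one way within the list. The log2 difference was below 0 for 29 of the 35 genes, that is for 15 of 17 enzymes and 14 of 18 others, where 45% of all genes were below 0. The median difference was -0.41 for the enzymes and -0.47 for the other genes, against 0.02 for all genes. In 9 genes (Pfkl, Aldoa, Gapdh, Pgk1, Eno1, Pkm2, Pdk1, Egln1 and Kdm3a) every day 15 value was below every day 10 value, against 3.92% of all genes, and 0 had every day 15 value above, against 5.21%. These counts describe genes that share the same 6 arrays, and 1 tumor weighs on them. Without tumor 307 the median differences were -0.19 for the enzymes and -0.22 for the others, and without tumor 312 they were -0.66 and -0.75. With median centring the median of all genes was itself -0.30, and the enzymes and the others both stood at -0.83.

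**Figure D2:**
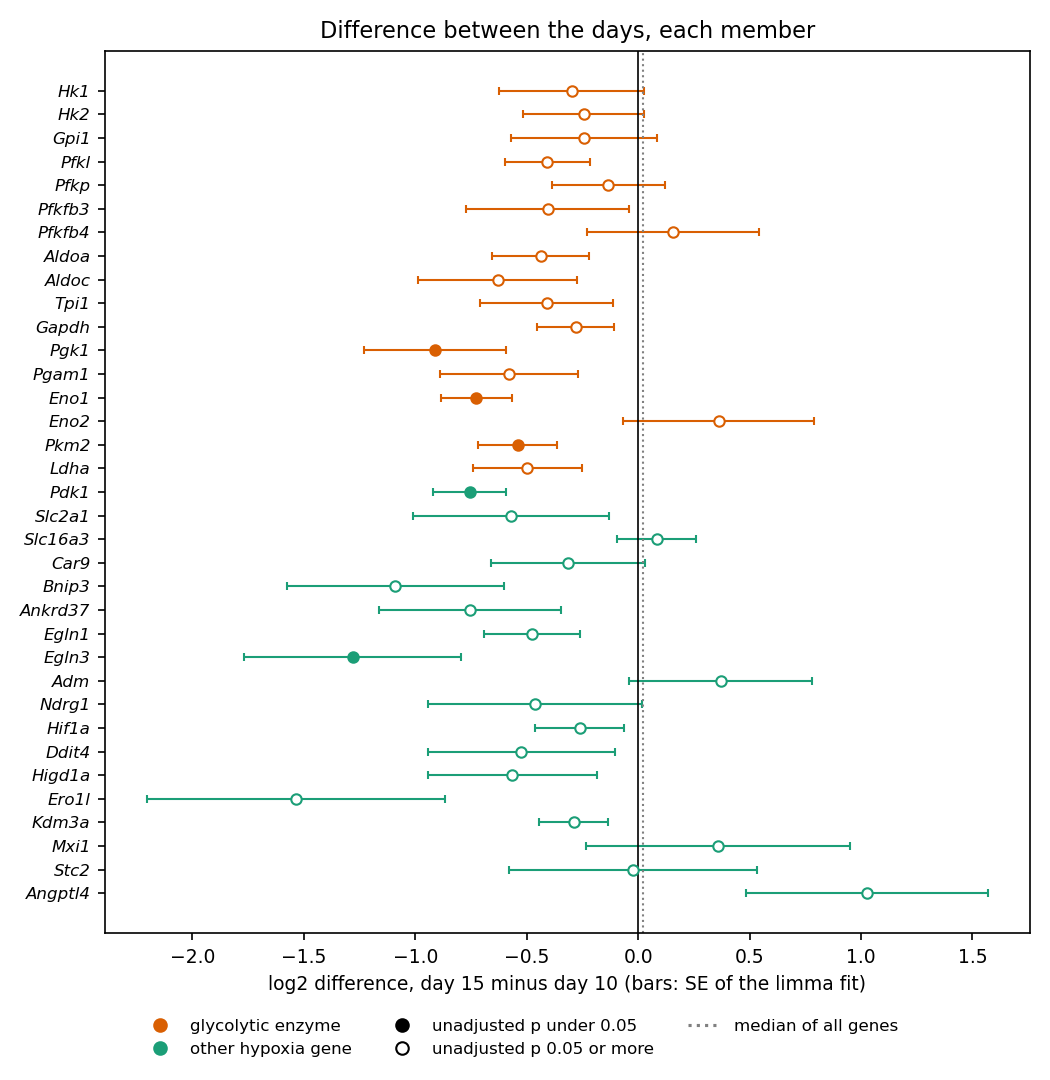
Log2 difference of the mean ratio, day 15 minus day 10, for each tested gene, with bars of 1 SE from the limma fit. Filled points have an unadjusted p under 0.05, orange marks glycolytic enzymes, green marks other hypoxia genes, and the dotted line is the median of all genes. Most points lie left of 0, and none passed the adjusted threshold.

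Among the enzymes, Eno1 had the smallest p. Its log2 ratio was -0.81, -0.65 and -0.71 in day 15 tumors 303, 313 and 318, against 0.10, 0.15 and -0.25 in day 10 tumors 302, 307 and 312. The days did not overlap, and the difference was -0.73 with an SE of 0.16 (limma adjusted p = 0.708). Its spot lay in the lost area of tumor 312, where the tumor-dye and reference-dye signals were both strongly dimmed. Its log2 signals there were 6.16 in Cy5 and 6.24 in Cy3, so the value of -0.25 is not firm. With single tumors left out the ratio difference ran from -0.85 to -0.65. Without tumor 312 the Cy5 signal alone differed by -0.92.

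Pgk1 was measured by 10 spots of its probe. Its log2 ratio was -0.40, -0.13 and -0.33 in day 15 tumors, in the order 303, 313 and 318, against 0.73, 1.20 and -0.05 in day 10 tumors 302, 307 and 312. All day 15 values lay below all day 10 values, but tumor 312 was closer to the day 15 tumors than to 302 and 307. The difference was -0.91 with an SE of 0.32 (limma adjusted p = 0.999). Pkm2 gave 0.50, 0.72 and 0.37 in the day 15 tumors in that order, against 1.13, 1.26 and 0.82 in the day 10 tumors (difference -0.54 with an SE of 0.18). Both probes of Pkm2 gave nearly the same difference, -0.54 and -0.53. Pfkl and Ldha, the next in order of p, differed by -0.41 and -0.50, and Ldha overlapped between the days. Aldoa could be compared over 2 day 10 tumors only, since the spot of tumor 307 was an outlier.

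Not every enzyme shared the direction. Pfkfb4 differed by 0.16 and Eno2 by 0.36, both carried by tumor 313, and both differences were below 0 without it (-0.24 and -0.12). Eno2 stood at 0.25, 1.53 and -0.07 in day 15 tumors 303, 313 and 318, against 0.41, 0.35 and -0.13 in day 10 tumors 302, 307 and 312. Tumor 313 was thus apart from the other 5. Aldoc showed the opposite in that tumor, at -0.28, while the other day 15 tumors stood at 0.70 and 0.80 and the day 10 tumors between 0.55 and 1.37. Pfkp differed by -0.13 by its main probe, while another of its probes, with a spot in the lost area, differed by 1.21. That spot deviated by -4.92 in Cy5 and by -1.56 in Cy3 from the other arrays. Its log2 ratio in tumor 312 was -0.27, against 2.66 to 4.45 in the other tumors, so the 1.21 is not firm.

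Of the hypoxia genes outside glycolysis, Ero1l, Egln3 and Bnip3 had log2 differences beyond -1, each with a wide spread between tumors. Ero1l, an oxidase that drives disulphide formation in the endoplasmic reticulum, had log2 ratios of -0.71, 1.25 and -0.36 in day 15 tumors 303, 313 and 318, against 1.72, 2.51 and 0.55 in day 10 tumors 302, 307 and 312. Day 15 tumor 313 exceeded day 10 tumor 312, so the days overlapped, and the difference of -1.53 had an SE of 0.67. Egln3 stood at -0.11, 0.90 and 0.27 in the day 15 tumors in the same order, against 1.68, 2.5 and 0.72 in the day 10 tumors (difference -1.28 with an SE of 0.49). Bnip3 stood at 0.63, 0.86 and 0.35 in the day 15 tumors, against 1.93, 2.57 and 0.61 in the day 10 tumors (difference -1.09 with an SE of 0.49). In all 3 genes the high values were those of tumors 302 and 307, while tumor 312 lay among the day 15 values.

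In several hypoxia genes tumors of both days lay intermingled. The glucose carrier Slc2a1 had log2 ratios of 0.36, 1.40 and 0.45 in day 15 tumors 303, 313 and 318, against 1.45, 1.95 and 0.53 in day 10 tumors 302, 307 and 312. Tumor 313 thus stood with 302 and 307, and tumors 303, 318 and 312 formed the low side. Ndrg1 had log2 ratios of 2.13, 2.47 and 1.38 in day 15 tumors 303, 313 and 318, against 2.54, 3.26 and 1.56 in day 10 tumors 302, 307 and 312, where tumors 318 and 312 were the low ones. Stc2 had log2 ratios of 0.70, 2.43 and 0.44 in day 15 tumors 303, 313 and 318, against 1.20, 1.70 and 0.74 in day 10 tumors 302, 307 and 312, with tumor 313 the highest and 318 the lowest. In these 3 genes the days overlapped. Ankrd37 differed in that all day 15 tumors were close together. Its log2 ratios were 1.57, 1.89 and 1.66 in day 15 tumors 303, 313 and 318, against 2.52, 3.27 and 1.60 in day 10 tumors 302, 307 and 312, so that the excess of day 10 came from 302 and 307, and tumor 312 lay among the day 15 values. Ldha likewise had its highest values in 307 and 302, with tumor 312 among the day 15 values, at -0.25, 0.12 and -0.012 in day 15 tumors 303, 313 and 318, against 0.47, 0.86 and 0.018 in day 10 tumors 302, 307 and 312.

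Pdk1 was -0.42 and -0.54 in day 15 tumors 303 and 313, against 0.33, 0.36 and 0.14 in day 10 tumors 302, 307 and 312, the spot of tumor 318 being an outlier. The difference of -0.76 (limma adjusted p = 0.755) rested on 2 day 15 tumors, and a second probe of Pdk1 gave -0.34. Egln1 differed by -0.48 and did not overlap. Angptl4 had the largest positive difference of the 35, 1.03 with an SE of 0.54, with tumor 313 at 3.52 and the other measured tumors between 1.11 and 2.34. Without tumor 313 that difference was 0.34, without 312 it was 0.68 and without 303 it was 1.72. Adm differed by 0.37, and by 0.04 to 0.73 with single tumors left out, the lowest without tumor 312 and the highest without tumor 318. The difference was 0.36 for Mxi1 and 0.08 for Slc16a3. The value of Mxi1 in tumor 312, -0.12, came from a dimmed spot, and without it the difference was -0.21. Hif1a itself differed by -0.26, with tumor 318 the highest at 0.77 and tumor 303 the lowest.

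The variation between tumors was wide and ran along the same tumors. For genes with all 6 values, the median range from the lowest to the highest tumor was 1.25 log2 units over 32 of these genes (1.64 for the other hypoxia genes and 1.12 for the enzymes), against 0.72 over all genes. Tumor 307 had the highest ratio in 25 of the 35 genes and tumor 313 in 7. The lowest ratio was in tumor 303 for 14 genes, in 312 for 9, in 318 for 7 and in 313 for 5, and never in 302 or 307. Of the genes lowest in 312, Hk1, Tpi1, Mxi1 and, less strongly dimmed, Ddit4 were read there from dimmed spots of the lost area. Gpi1 was so in part, at 1.02 with those spots and 1.33 without them. By the median over the genes, the day 15 tumors 303, 313 and 318 stood at 0.41, 1.07 and 0.45, and the day 10 tumors 302, 307 and 312 at 1.25, 1.72 and 0.61. The days therefore overlapped, with tumor 313 above tumor 312. The arrays of tumors 307 and 313 shared the second position of their slides, and with position as a block 0 genes passed between the days and the median differences stayed at -0.41 and -0.47.

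**Figure D3:**
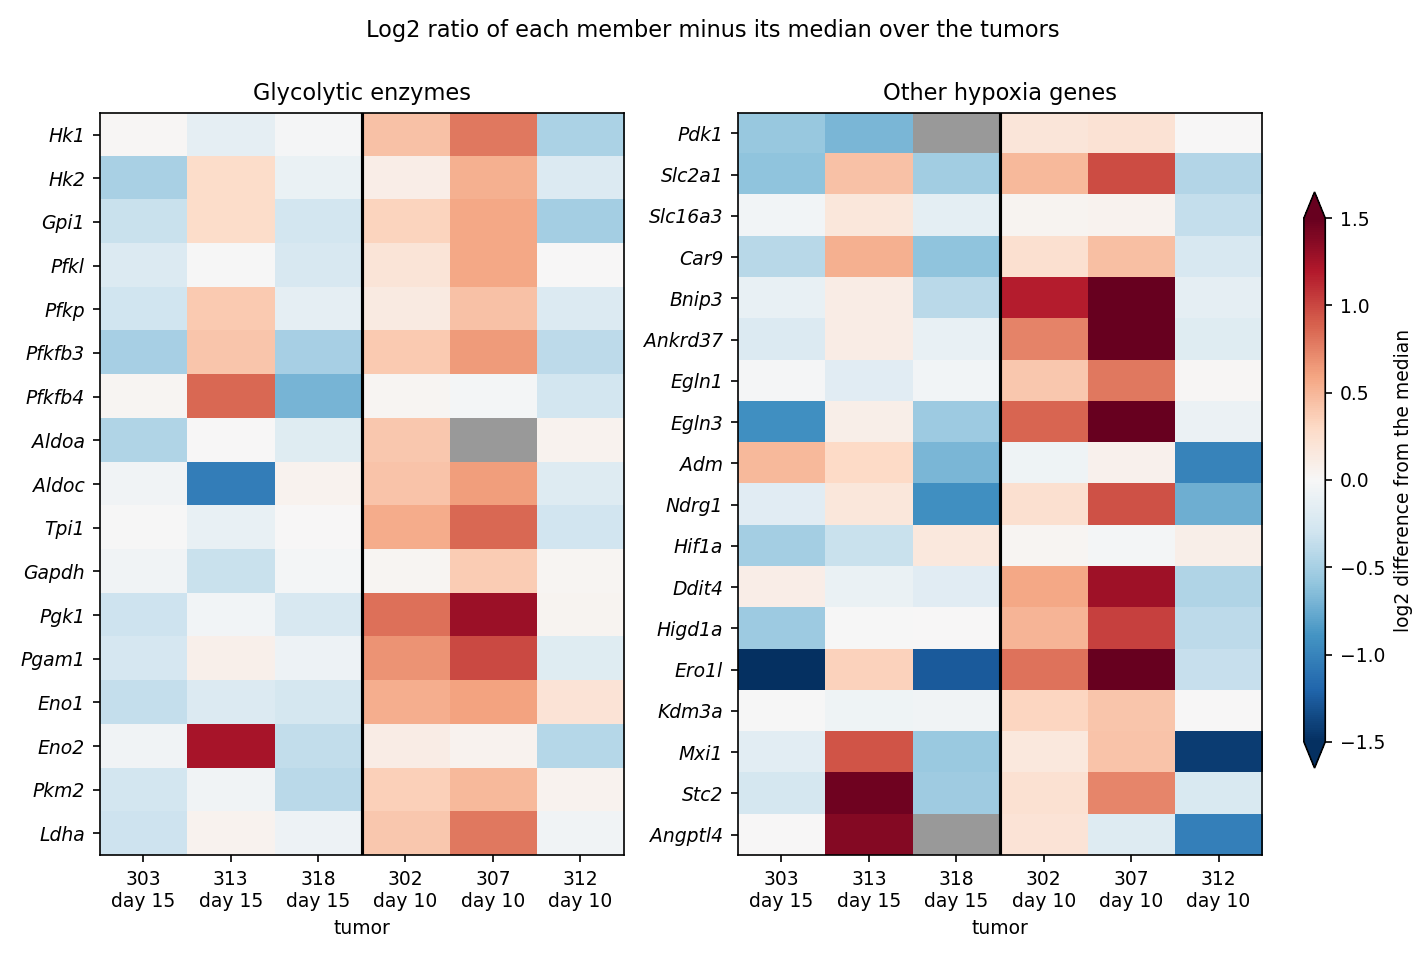
Log2 ratio of each gene (rows) in each tumor (columns, day 15 left of the line and day 10 right of it) minus the median of that gene over the tumors, in log2 units. Red is above the median, blue below, and grey marks a spot left out as an outlier. Tumors 307 and 302 are red in most rows, and tumor 313 is red for Eno2, Mxi1, Stc2 and Angptl4. Tumor 312 resembles the day 15 tumors in many rows, some of them read there from dimmed spots.

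Read in the tumor dye alone, after quantile normalization, 0 genes passed between the days, while 6 were lower at an unadjusted p under 0.05 (2% of all genes were) and 25 of 35 differences were below 0, against 61.8% of all genes. In 11 genes all day 15 Cy5 values lay below all day 10 values, against 6.54% of all genes. The enzymes Hk1, Eno1, Gpi1, Pgam1 and Tpi1 had positive Cy5 differences, as did Higd1a, and each had a dimmed spot on the array of tumor 312. Leaving that array out, 32 of 35 Cy5 differences were below 0, against 50.6% of all genes, and 0 passed. Cy5 then differed by -2.16 for Ero1l, -1.69 for Egln3, -1.54 for Bnip3, -1.26 for Ankrd37 and -0.94 for Pgk1. In bulk tumors fewer cells of a type and less RNA per cell cannot be told apart. The reference dye, in which the same kind of RNA was on every array, showed 0 passing genes of 33 tested, with 13 differences below 0, against 70.3% of all genes. That count is not firm, because dimmed spots of tumor 312 lower the day 10 mean in Cy3 too. Among the genes with such spots, Cy3 differed by 2.82 for Hk1, 1.89 for Eno1, 1.71 for Higd1a and 1.48 for Pgam1. It differed by 1.35 for Mxi1, 1.20 for Tpi1 and 0.76 for Gpi1. At an unadjusted p under 0.05 Slc16a3 was the only one of the genes past that level, at -1.18, against 1.43% of all genes lower. That shift stands beside its ratio difference of 0.08 and its tumor-dye difference of -0.93.

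Spots of 14 genes lay in the rectangle on the array of tumor 312, with uneven effect. In Cy3 the spot of Hk1 deviated by -8.20 log2 units from the other arrays. Eno1 deviated by -5.91, Higd1a by -4.89, Pgam1 by -3.97, Mxi1 by -3.91 and Tpi1 by -3.47. Deviations were smaller for the brightest probe of Aldoc (-0.88) and for Ddit4 (-0.71). Egln1 (0.04) and Gapdh (-0.02) lay inside it with deviations near 0, where bright spots outside it had a median of 0.50. Of the 10 spots of Pgk1, 1 deviated by -8.40, and of those of Gpi1, 3 deviated by -2.43, -7.26 and -7.88. The log2 ratio of tumor 312 was 1.02 for Gpi1 over all spots and 1.33 without the area, and -0.05 and 0.05 for Pgk1. With the area left out on that array, the median difference between the days was -0.44 for the enzymes and -0.52 for the others. Ddit4 then differed by -0.98, against -0.53 over all spots, and Aldoc by -0.87, against -0.63. The other probes of Hk1 that passed the filter on dim probes, all outside the area, differed by -0.55 to -0.67 between the days, where the dimmed one differed by -0.30.

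**Figure D4:**
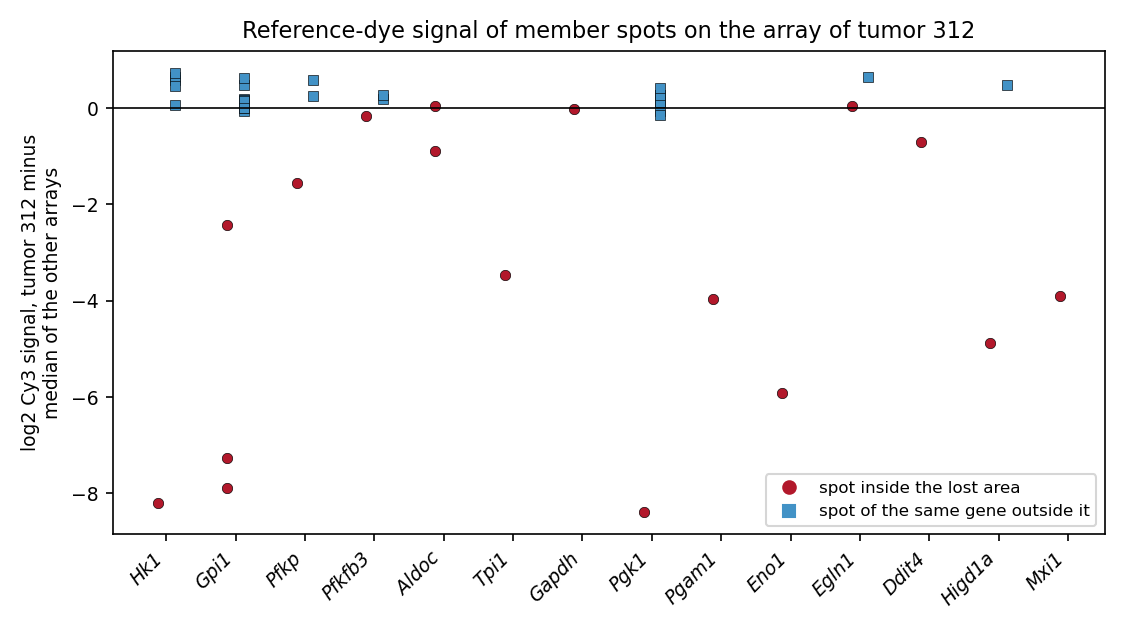
Log2 Cy3 signal on the array of tumor 312 minus the median of the other arrays (vertical axis) for each probe spot of the genes with a spot in the lost area. Red circles are spots inside it and blue squares spots of the same gene outside it. Spots inside run down to -8.40, and several, such as Egln1 and Gapdh, lie near 0.

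Further genes of the pathway, in 5 lists, gave 0 calls between the days as well. Of 24 further hypoxia targets, 20 had a difference below 0 (median -0.25), where 45% of all genes did. Against the reference 13 were called higher and 1, the transferrin receptor Tfrc, lower, where 25.5% of all genes were higher and 9.76% lower. The 3 smallest p in that list were those of Ak4, a mitochondrial adenylate kinase (-0.85), Mif, a cytokine (-0.54), and Gys1, muscle glycogen synthase (-0.61). Vegfa, the vessel growth factor, differed by -0.18 and averaged 1.18 against the reference. Of 8 regulators of HIF, 4 were below 0. Cited2, which competes with HIF for its coactivator, differed by -0.65, Vhl, which marks HIF for destruction, by -0.31, and Epas1, the other main alpha subunit, by 0.68. Only Epas1 was called against the reference, at 3.25.

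Isoforms of glycolytic genes typical of particular tissues had 7 of 12 differences below 0, with a median of -0.36. Of all genes tested, 45% were below 0, with a median of 0.02. Pgam2, the muscle mutase, stood at 0.20, 0.34 and -0.34 in day 15 tumors 303, 313 and 318, against 3.37, 1.33 and 3.84 in day 10 tumors 302, 307 and 312. The days did not overlap, at a difference of -2.78 (limma adjusted p = 0.755). Pfkm, the muscle phosphofructokinase, differed by -0.49, and Ldhb by 0.64. For the fate of pyruvate and lactate, 5 of 12 differences were below 0, among them Pdha1 of pyruvate dehydrogenase at -0.33. The log2 signals of Pdha1 on the array of tumor 312 were strongly dimmed, at 6.31 in Cy5 and 6.18 in Cy3. In Cy5 the other arrays stood at 12.3 to 12.7, so that difference is not firm. Without tumor 312 the Cy5 signal of Pdha1 alone differed by -0.21. The pyruvate carrier Mpc2 differed by 0.37 and the monocarboxylate carrier Slc16a7 by 0.81. In gluconeogenesis 3 of 6 genes could be tested, with pyruvate carboxylase (Pcx) at 1.42, Fbp2 at -0.78 and Pck2 at -0.15.

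Marker genes of other cells differed between the tumors beside these values. The summed Cy5 intensity of 7 skeletal muscle markers was 855 to 905 in day 15 tumors and 21293 to 177777 in day 10 tumors. That of 8 hepatoma and hepatocyte markers was 73657 in tumor 313, against 709728 to 1107230 in the other 5. Summed markers of endothelium came to 13784 to 23820 in day 15 tumors and 7046 to 13694 in day 10 tumors. Those of erythroid cells came to 146744 to 408581 in day 15 tumors and 75271 to 132471 in day 10 tumors, and those of neutrophils to 21536 to 37395 in day 15 tumors and 4437 to 20922 in day 10 tumors. None of these 4 ranges of muscle, endothelium, erythroid cells and neutrophils overlapped between the days, while those of the other 7 marker lists did. This depends on the measure. By the median log2 ratio of a list, neutrophils overlapped, at 2.09 to 3.26 at day 15 and 1.65 to 2.34 at day 10. T cells and fibroblast and matrix genes then did not overlap. The T cell median was 0.45 in tumor 312 and 3.33 to 3.92 in the others. Marker spots in the lost area of tumor 312 were not left out. The T cell marker Cd4 was not well above background in any tumor, and Hbb-b1, Ly6g and Trac were not matched to a probe. What part these cells had in the values of the hypoxia and glycolysis genes was not tested.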

How the data were processed

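RNA of 6 tumors was measured on 6 2-colour arrays, with tumor in Cy5 and blood reference in Cy3. Per the file headers and the submitters' processing notes, the deposited files came from Agilent Feature Extraction 9.1.3.1. They hold mean pixel intensity and median background intensity per spot and dye, not normalized, as deposited. The processed intensities were background-subtracted and dye-normalized by that software, per the file headers. The log10 ratios of the authors' deposited value table differed by 0 from the log10 ratios in the scanner files, and its columns all had a median of 0. No genome build is named in the sources used here for the arrays, so gene names came from the array files and a RefSeq table (GRCm38.p6).

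Here, with limma 3.58.1 in R 4.3.3, intensities were corrected with normexp (offset 50), and log2 ratios were normalized by loess within arrays. Control spots and outlier spots (45 to 71 per array) were dropped before repeated spots of 1 probe were averaged. No spot of these genes was saturated. A gene was represented by its probe of highest mean log intensity among those well above background on at least 3 of the 6 arrays. In the comparison of days this was required in Cy5, and against the reference in either dye. Both comparisons were fitted over all genes by lmFit and eBayes (2-sided), and p-values were adjusted by Benjamini-Hochberg with a threshold of 0.05. Against the reference, the average of both day means was set against 0 and calls also needed a mean log2 ratio of 1 or more in size. Tumor numbers, which differ between the days, give no pairing. A bound on a fold divides the tumor mean by, on each array, the larger of 2 signals: that of the dim probe, and the faintest one still well above background. The fits were also run on simulated data with independent noise in each gene. That simulation held no lost area, slide effect or dye bias, so it cannot speak to these. The number of arrays limits the precision.

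The genes, lists and tests were chosen with earlier results of these data known. A rule chose part of the genes whose values are given tumor by tumor, as far as their spots were usable, or as a ratio. In each subgroup it took the 5 of smallest p between the days and the 3 of widest range. It also took the 3 highest and 3 lowest ratios to the reference and all genes with a spot in the lost area. In each further list it took the 3 genes of smallest p. Slc2a1, Ndrg1, Stc2 and Ankrd37, although given tumor by tumor, were not chosen by this rule. These and all remaining gene names were picked with values in view. Alternatives covered background correction, normalization, the filter on dim probes, the probe rule, the lost area, slide position, single dyes and leaving out each tumor. The tumor dye without tumor 312 was added after the data were seen. Slides and days coincide, so the slide could not be a block. Values of some single genes in the further lists are not reported here.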

Additional observations from a re-analysis of the deposited data

Results flagged for a closer look

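The log2 ratio of Eno2 in day 15 tumor 313, 1.53, lay far from the other tumors, the next highest being 0.41. The gap took up 0.675 of the whole range of the 6 tumors, past Dixon's critical value at the level used. Of the 35 genes examined in this way, this was the only one past it, and chance alone flags about 1 group in 20.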

How the results depend on the processing

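The count of 0 genes passing between the days held under all 17 alternative fits, and the number of genes called higher than the reference ranged from 12 to 18, from 13 to 18 with 1 tumor left out. The number with a difference below 0 ranged from 25 to 33, from 27 to 33 with 1 tumor left out. Other settings moved single values, and unless the setting itself shows why, the cause was not tested. Median centring without loess put the median ratio of all tested genes at -0.34, against 0.22 with loess, and their median difference between the days at -0.30, against 0.024. It gave a median enzyme ratio of -0.17, 4 genes called lower than the reference and a median enzyme difference between the days of -0.83. The 4 genes were Eno1 (-1.06), Pgam1 (-1.03), Tpi1 (-1.16) and Higd1a (-1.39). Under it the ratios of Aldoa (-0.14), Ero1l (-0.035), Hif1a (-0.38), Hk1 (-0.46), Hk2 (-0.16), Kdm3a (-0.55), Ldha (-0.78), Pfkl (-0.21), Pgk1 (-0.79) and Pkm2 (-0.17) were below 0, and so were the differences of Eno2 (-0.0070), Mxi1 (-0.20), Pfkfb4 (-0.20) and Slc16a3 (-0.20). With the scanner's processed signals, and equally with the authors' value table, the ratios of Eno2 (-0.044), Kdm3a (-0.012), Ldha (-0.15) and Pgk1 (-0.078) were below 0 and the difference of Car9 was 0.12. With the mean of all probes the ratios were 0.077 for Higd1a, -0.073 for Kdm3a and 0.52 for Pdk1, and the difference of Pfkp was 0.41. With the filter set at all 6 arrays another probe stood for Pdk1, with a ratio of 0.95. Without background correction the difference of Stc2 was 0.0086.

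In the tumor dye alone the differences of Eno1 (0.90), Gpi1 (0.47), Higd1a (0.96), Hk1 (2.15), Pgam1 (0.91) and Tpi1 (0.88) were above 0, where the spots dimmed on the array of tumor 312 lower the day 10 mean, and those of Pfkfb4 (-0.027) and Slc16a3 (-0.93) were below 0. In that dye without tumor 312 the differences were -0.22 for Adm, -0.14 for Mxi1 and -1.17 for Slc16a3. With the lost area left out the difference of Mxi1 was -0.21 and the ratio of Pgam1 0.079. Leaving out 1 tumor at a time gave differences of -0.12 to 0.68 for Eno2, -0.21 to 0.71 for Mxi1, -0.24 to 0.54 for Pfkfb4, -0.34 to 0.024 for Pfkp, -0.052 to 0.15 for Slc16a3 and -0.64 to 0.35 for Stc2, and a ratio of -0.21 to 0.079 for Pgam1. No paired analysis was possible because the tumor numbers are not shared between the days. With 3 tumors a day, signals close to background (Car9 and Stc2 in the reference, Car12 in both dyes) set a limit to what could be measured.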
